A study of Mus musculus with 10 samples.

Results

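The calcium-calcineurin-NFAT and CaMKII genes of cardiac hypertrophy were examined in the left ventricles of mice after pressure overload. The members were 10 genes fixed by name, Rcan1, Ppp3ca, Ppp3cb, Nfatc1, Nfatc2, Nfatc3, Nfatc4, Camk2d, Hdac5 and Hdac9, of 19942 gene symbols on the array, and every probe carrying one of these symbols was taken. They had 15 of the 26423 probes, and 14 probes, at least 1 for each of the 10 genes, remained among the 19976 probes that were above the filter on low values. Male C57BL/6J mice, 8 weeks old, underwent transverse aortic banding (TAB), a constriction that raises the pressure against which the left ventricle ejects, or a sham operation. RNA of the whole left ventricle was taken on days 3, 5, 7, 14 and 28 and read in 1 colour on the Mouse Whole Genome OneArray, which carries oligonucleotide probes, with 1 array per operation and day and 10 in all. How many mice a sample held is not given in the sources used here. For the TAB sample titled day 14 a further label states 15 days, and the title was followed.

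Calcineurin is the phosphatase that calcium and calmodulin switch on in the stressed cardiomyocyte. It removes phosphates from the NFAT transcription factors, which then enter the nucleus and act with GATA4 and other factors on hypertrophy genes. CaMKII, the other main calmodulin target of this pathway, phosphorylates class IIa histone deacetylases so that they leave the nucleus and release MEF2. Most of this signalling runs through phosphates and protein location, which an array of mRNA does not read. The mRNA of Rcan1, whose protein binds and restrains calcineurin, can be read at this level. Its short transcript is a known target of NFAT, but whether the array probe reads that transcript is not given in the sources used here.

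Intensities were scaled, quantile normalized over the 10 samples and put on the log2 scale, and a log2 ratio is TAB over sham of the same day. The average TAB effect was tested with limma on all kept probes with the day as a block, and a probe was called at an adjusted p (Benjamini-Hochberg) under 0.05. With 1 array per operation and day, a difference on a single day has no replicate check, and the 5 days stand in for replicates in the average. Raw array medians ranged from 34 to 57. The sham sample of day 14 stood apart in some genes that matter here. It had the highest sham levels of the immediate-early genes Egr1, Fos and Nr4a1, of the natriuretic peptide gene Nppb, and of the atrial genes Myl7 and Sln, for which it read 3862 and 1761 against at most 2524 and 1045 in the other sham samples. Values without day 14 are therefore given beside the main results. Leaving out a day also left fewer samples, and the number of calls then depended on the day. Without day 14, 184 probes were called against 2836 with all days, whereas the count without day 28 stayed close to the full one. As a description of the tissue, 9 cardiomyocyte and ventricular markers were read, and a missing call does not test the label of left ventricle. They were found on all 10 arrays, and none was called by limma. Myl2, the ventricular myosin light chain gene, lay within 1% of the brightest value of the array on 9 of them, so a change in it could not be seen. Tnni3 and Ryr2 were lower in TAB on all 5 days (log2 -0.44 and -0.36, limma adjusted p = 0.0646 and 0.0906). Each was called lower under 4 of the alternatives. Of the atrial genes, Myl7 and Sln were lower in TAB on all 5 days (log2 -0.81 and -0.90, limma adjusted p = 0.121 and 0.164). Myl4 was lower on 3 days and not called either (log2 -0.40). Without day 14 the mean log2 ratios of Myl7 and Sln were -0.45 and -0.44.

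Rcan1 had the only called probe of the 14 kept member probes, where 7.47% of all kept probes were called higher. Its probe was found on all 10 arrays, with a deposited detection p-value of at most 0.00136. In the TAB samples its normalized intensity was 2429, 1444, 1420, 1633 and 928 in the order of the days. In the sham samples it was 873, 608, 534, 1157 and 510 in the same order. TAB was higher on each of the 5 days, but the groups overlapped, because the sham sample of day 14 lay above the TAB sample of day 28. The log2 ratios from day 3 to day 28 were 1.48, 1.25, 1.41, 0.50 and 0.86. The mean log2 ratio was 1.10 (SE 0.175, n = 5 days), a 2.14-fold higher level in TAB (95% interval 1.60 to 2.88), and it was called (limma adjusted p = 0.0236). Without day 14 the mean log2 ratio was 1.25 and remained called (limma adjusted p = 0.0480), and without day 28 it was 1.16 (limma adjusted p = 0.0315). Without day 3, 5 or 7 it was 1.00, 1.06 and 1.02, and the call was lost (limma adjusted p = 0.0826, 0.0805 and 0.0890).

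Ordered by level, the TAB samples of days 3, 14, 5 and 7 came first, followed by the sham sample of day 14, the TAB sample of day 28 and the sham samples of days 3, 5, 7 and 28. Neighbours in this order are single arrays, so their differences cannot be tested. Among all probes, Rcan1 stood above 95.6% of the log2 ratios of day 3 and above 82.2% of those of day 14, and on no day did it pass 2 SDs of that day's ratios, the limit for a differentially expressed (DE) gene.

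Rcan1 has 2 annotated starts among the RefSeq sequences used here, on the minus strand of chromosome 16 (GRCm38.p6; the gene spans 92391951 to 92466169). The outer start gives the long transcript and the inner start the short transcript that is known as the calcineurin-responsive form. Which of them the array probe reads is not given in the sources used here, and its value cannot be assigned to a start. The 250 bases before each start are shown because the change in Rcan1 could reach the array through either. Capitals mark GGAAA, the core letters that NFAT proteins bind, and CACGTG, the E-box bound by the clock factor that Arntl encodes, each searched on both strands. The motifs were chosen after the values were seen, and no copies of the 2 motifs overlapped.

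Rcan1 inner start, chr16:92400079-92400328, minus strand: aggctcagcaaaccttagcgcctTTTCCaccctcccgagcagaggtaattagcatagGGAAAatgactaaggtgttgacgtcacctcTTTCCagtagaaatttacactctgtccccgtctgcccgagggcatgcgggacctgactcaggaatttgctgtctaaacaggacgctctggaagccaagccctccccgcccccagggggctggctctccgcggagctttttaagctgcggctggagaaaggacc

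Rcan1 outer start, chr16:92466170-92466419, minus strand: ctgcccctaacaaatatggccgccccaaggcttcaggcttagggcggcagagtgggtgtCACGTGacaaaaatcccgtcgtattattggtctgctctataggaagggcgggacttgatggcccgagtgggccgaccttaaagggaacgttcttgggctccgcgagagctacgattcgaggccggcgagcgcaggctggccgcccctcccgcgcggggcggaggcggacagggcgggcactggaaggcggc

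The inner window holds 3 copies of GGAAA, which lie between 163 and 227 bases before the start, and no CACGTG. The outer window holds 1 CACGTG and no GGAAA. Of 32851 RefSeq windows of this length, 55.6% hold GGAAA at least once, 6.39% hold at least 3 copies and 6.02% hold CACGTG. Windows were at hand for 8 of the members. Nfatc4, Ppp3cb and 1 of the 2 starts of Nfatc2 also hold 3 copies of GGAAA, and the window of Hdac5 holds none. Of the 2 windows of Nfatc3, 1 also holds 1 CACGTG and no GGAAA. A match is a string of letters and shows no binding.

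**Figure D1:**
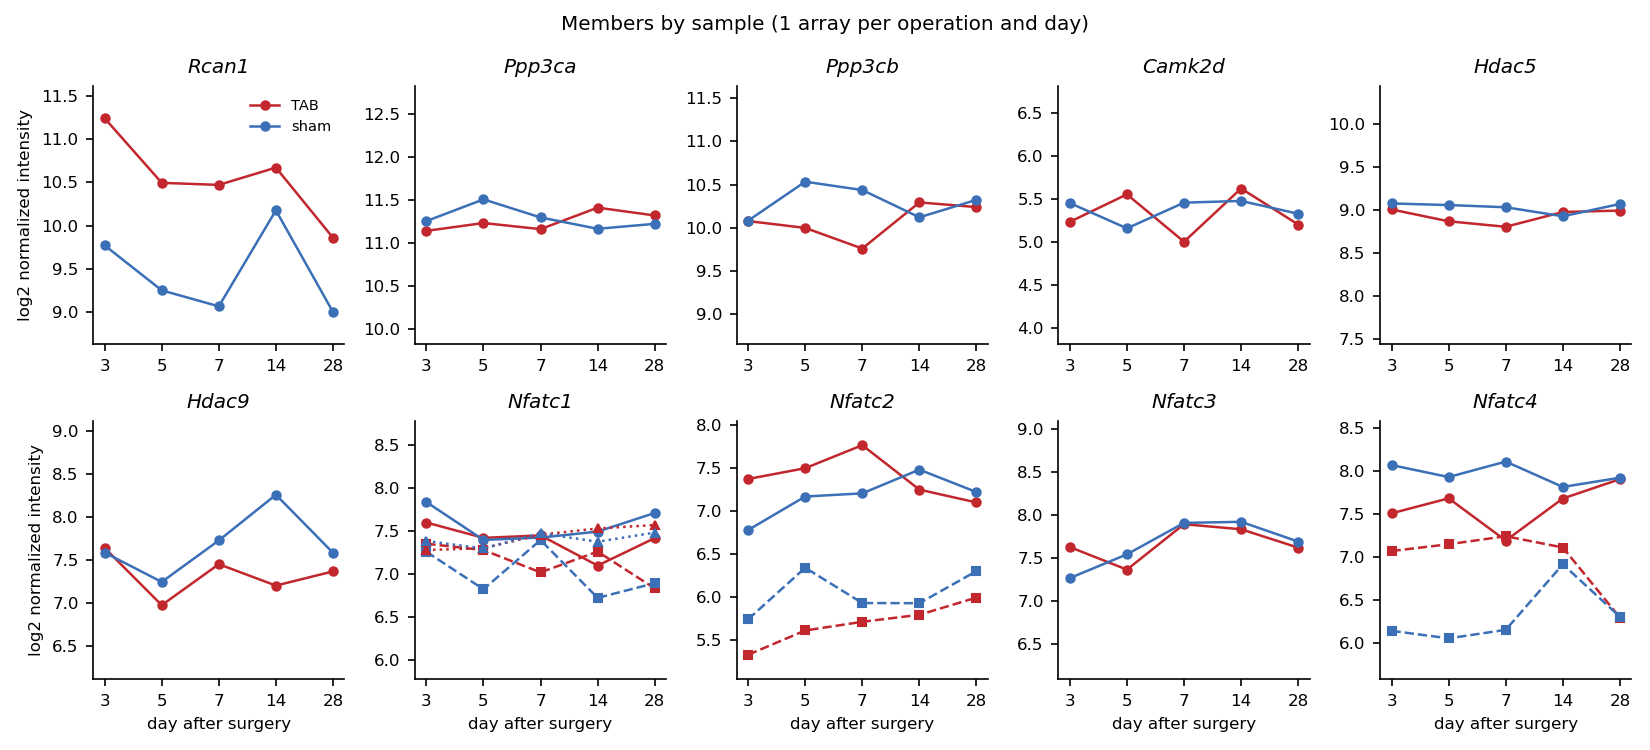
Log2 normalized intensity of the kept probes of each member (vertical axis) by day after surgery (horizontal axis, days evenly spaced), with TAB in red and sham in blue and 1 array per point. Solid lines are the brightest probe of a gene, and dashed and dotted lines its other probes. Rcan1 in TAB lies above sham on each of the 5 days and both series peak on days 3 and 14, whereas the lines of Ppp3ca, Hdac5 and Camk2d cross or nearly touch.

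The catalytic subunits of calcineurin were not called. Ppp3ca, the alpha catalytic subunit, read 2259, 2407, 2292, 2724 and 2558 in TAB on days 3 to 28 and 2445, 2912, 2518, 2298 and 2391 in sham. The groups overlapped over most of their range, and TAB was lower on the 3 early days and higher on the 2 late days. Its mean log2 ratio of -0.04 (SE 0.119) corresponds to a fold of 0.975 with a 95% interval of 0.798 to 1.19 (limma adjusted p = 0.864), so an average change as large as that of Rcan1 lies outside the interval. Its sign turned with median scaling alone (0.095) and with normalization within each operation (0.092). Ppp3cb, the beta catalytic subunit, read 1079, 1021, 865, 1254 and 1207 in TAB and 1082, 1481, 1385, 1112 and 1279 in sham. The 2 lowest TAB values, those of days 5 and 7, were set against the 2 highest sham values, and the other days lay close together. Its mean log2 ratio was -0.23 (SE 0.161, limma adjusted p = 0.371), with a fold interval of 0.652 to 1.12. Both probes had a detection p-value under 0.05 on all 10 arrays.

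Of the 14 kept member probes, 1 was called higher and 0 lower. Of all kept probes, 7.47% were called higher and 6.73% lower (2836 calls in all). At an unadjusted p under 0.05, 3 member probes passed, against 33.8% of all kept probes. None of the 14 probes separated the 5 TAB samples from the 5 sham samples without overlap, which 8.78% of all kept probes did upward and 7.59% downward. None of the 70 member values on single days was DE by 2 SDs, against 5.58% of the single-day values of all kept probes. By probe, none of the 14 was DE on any day, against 17.9% of all kept probes. The median of the mean log2 ratios was -0.04 over the member probes and -0.05 over all kept probes.

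**Figure D2:**
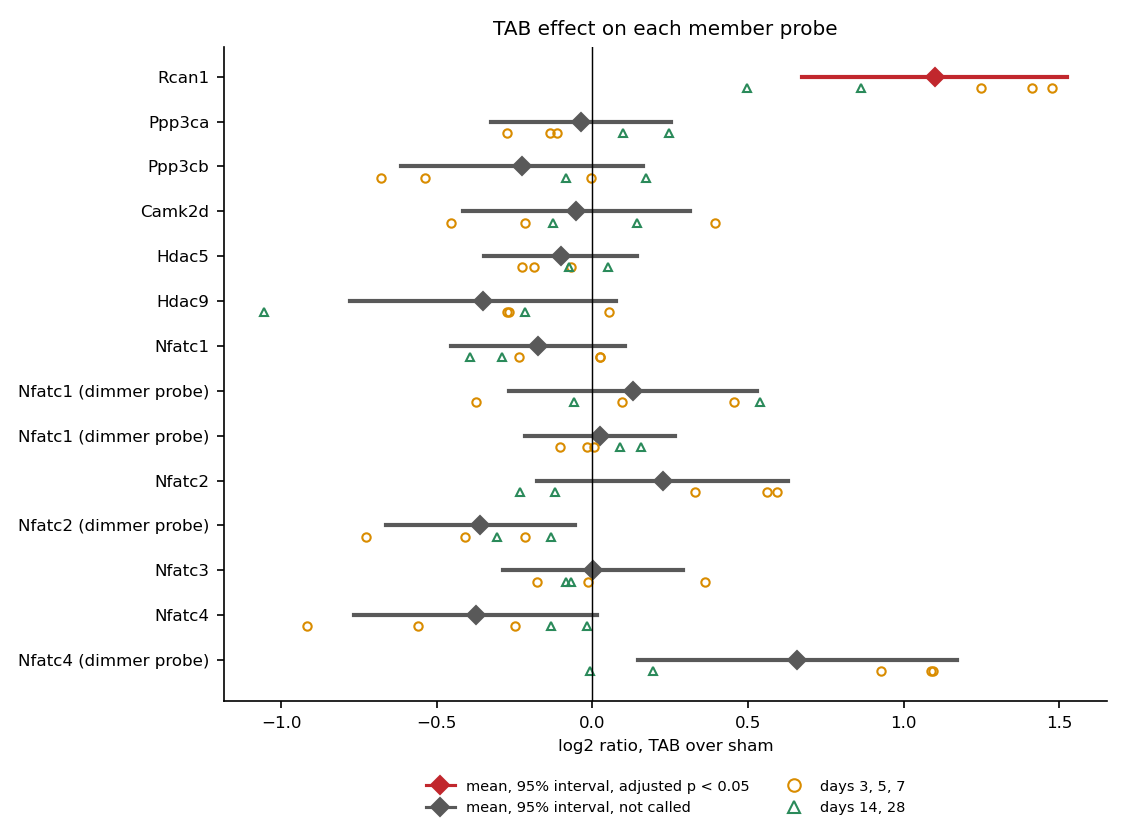
Log2 ratio of TAB over sham (horizontal axis) for each of the 14 kept member probes (vertical axis), with the mean over the 5 days as a diamond, its 95% interval from limma as a bar, and the single days as open symbols. The Rcan1 interval of 0.67 to 1.52 lies above 0 and is the only called one, and the pairs of probes for Nfatc2 and Nfatc4 lie on opposite sides of 0.

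The NFAT genes were measured by dim probes, and where a gene had several, the probes often differed. Of the 10 member probes that were dim by the deposited detection p-value, 7 passed 0.05 on 2 arrays, always the sham arrays of days 7 and 28, and 3 passed on none. On those 2 arrays 50.96% and 50.11% of all kept probes passed, against 24.75% to 30.99% on the other arrays, so this p-value was not comparable between arrays and no call used it. All 14 kept probes were nonetheless found on all 10 arrays by the scanner flag.

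Nfatc4, the NFAT gene known as a partner of GATA4 in the heart, had 2 kept probes with opposite signs. The brighter probe read 182, 205, 146, 205 and 239 in TAB and 268, 244, 276, 225 and 242 in sham. TAB was lower on each day, and its mean log2 ratio was -0.38 (SE 0.161, limma adjusted p = 0.160). The dimmer probe read 134, 142, 151, 138 and 78.5 in TAB and 70.6, 66.4, 71.2, 121 and 79.0 in sham. Here TAB was higher by about 1 log2 unit on days 3, 5 and 7 (0.93, 1.09 and 1.09) and close to sham on days 14 and 28 (0.20 and -0.01), with a mean log2 ratio of 0.66 (SE 0.211, limma adjusted p = 0.0842, unadjusted p = 0.0196). The remaining Nfatc4 probe was not found on any array and was removed, with raw intensities of -2 to 9. Since the probes of this gene disagree in sign, no direction is given for Nfatc4. The dimmer probe was called under 4 of the alternatives, among them the restriction to probes found on all 10 arrays.

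Nfatc2 also had 2 kept probes of opposite sign. The brighter probe had log2 ratios of 0.59, 0.33, 0.56, -0.23 and -0.12 on days 3 to 28, with a mean of 0.23 (SE 0.166, limma adjusted p = 0.388). The dimmer probe read 40.3 to 63.9 in TAB and 53.6 to 81.2 in sham, was lower in TAB on each day and had a mean of -0.36 (SE 0.124, limma adjusted p = 0.101), which was called under 2 of the alternatives. No direction is given for Nfatc2 either.

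For Nfatc1, whose product is best known from valve and endocardial development, the 3 probes had mean log2 ratios of -0.18, 0.13 and 0.02, with TAB intensities of 114 to 194 over the probes. Nfatc3, whose loss is known to blunt calcineurin-driven hypertrophy in mice, read 198, 165, 237, 228 and 197 in TAB and 154, 186, 240, 242 and 206 in sham. These values overlapped throughout, and the mean log2 ratio was 0.00 (SE 0.119, limma adjusted p = 0.993), with a fold interval of 0.819 to 1.22.

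Camk2d, the main CaMKII gene of the heart, could not be resolved by its 1 probe. The probe read 37.6, 46.9, 32.02, 49.2 and 36.8 in TAB and 43.7, 35.7, 43.9, 44.5 and 40.1 in sham, and its raw intensities of 23 to 50 lay at the lower edge of the found spots, of which 1% had less than 25 to 27. Its detection p-value was never under 0.519. The mean log2 ratio was -0.05 (SE 0.150, limma adjusted p = 0.846), and a change of the transcript cannot be judged from a probe this dim. Hdac5, a class IIa histone deacetylase exported from the nucleus after phosphorylation, was well measured. It read 515, 468, 448, 505 and 511 in TAB and 541, 534, 524, 488 and 538 in sham, which on the log2 scale was the smallest SD of the 14 member probes in each group (0.089 in TAB and 0.061 in sham). The mean log2 ratio was -0.10 (SE 0.101, limma adjusted p = 0.520), with a fold interval of 0.786 to 1.10. Hdac9, whose loss sensitizes mice to pressure overload, read 199, 126, 175, 147 and 165 in TAB and 192, 151, 211, 305 and 191 in sham. The value of 305 in the sham sample of day 14 stood above the rest and gave that day's log2 ratio of -1.06, and the mean was -0.35 (SE 0.176, limma adjusted p = 0.216). Without day 14 the mean was -0.18.

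The time course was compared as the late days (14 and 28) against the early days (3, 5 and 7). For Rcan1 the mean log2 ratio was 1.38 on the early days and 0.68 on the late days, a difference of -0.70 (SE 0.221, unadjusted p = 0.0246) that did not pass adjustment (limma adjusted p = 0.439). The dimmer Nfatc4 probe went from 1.04 to 0.09, a difference of -0.94 (SE 0.199, limma adjusted p = 0.425), and the brighter Nfatc2 probe from 0.49 to -0.18, a difference of -0.67 (limma adjusted p = 0.438). These were the 3 member probes with an unadjusted p under 0.05, as had 10.4% of all kept probes, and 0 of the 19976 probes were called by limma (0%, 2086 at an unadjusted p under 0.05, and 35 adjusted calls with trend and robust on in eBayes). On simulated data, with 71, 64 and 65 probes changed by 1, 2 and 3 log2 units, this contrast recovered 0%, 0% and 38.5% of them. These rates may be too low. Few probes were changed, and the simulated spread held any real difference between early and late days. A missing call still says little about the time course. Without day 14 the difference for Rcan1 was -0.52, and the mean log2 ratios over the remaining days were 0.77 for the dimmer Nfatc4 probe, -0.42 for the dimmer Nfatc2 probe, -0.11 for Ppp3ca and -0.33 for Ppp3cb (none called by limma). Macrophage markers were also higher early than late in TAB, with a summed intensity of their 8 kept genes of 14292 to 16826 on days 3, 5 and 7, 8525 on day 14 and 6480 on day 28, against 4349 to 4974 in sham. All 8 were called higher, and 2 of the 8 without day 14. Of the fibroblast markers, 4 of 6 kept genes were called higher, with summed intensities of 40298 to 55916 in TAB and 30665 to 32751 in sham, and Col1a1 and Pdgfra were below the filter. Without day 14, 2 of the 6 were called. Most of these sums is Dcn (28808 to 35916 in TAB, 25920 to 28486 in sham), which was not called, whereas the matrix gene Postn rose 10.4-fold (limma adjusted p = 0.00548). Col1a2 also rose (limma adjusted p = 0.0142), from 107 to 157 in sham to 471 to 2543 in TAB, with a detection p-value under 0.05 on 2 of the 5 sham arrays. Col3a1 also rose (limma adjusted p = 0.0178), from 11.8 to 64.5 in sham to 99.1 to 683 in TAB, and its probe was found on 4 of the 5 sham arrays, so the size of its change is uncertain. None of the 7 endothelial markers was called, with sums of 11058 to 14543 in TAB and 10168 to 12197 in sham. Of the 6 T cell markers, 2 were called higher and 1 lower, with sums of 292 to 379 in TAB and 323 to 459 in sham. The 2 higher ones, Cd3d and Lck, were found on 2 and 5 TAB arrays and on 0 sham arrays, and most of the sums is the lower one, Cd3e (187 to 294 in TAB, 287 to 427 in sham). Without day 14, 0 of the T cell and 0 of the proliferating-cell markers were called. Of the 4 proliferating-cell markers, 3 were called higher, with sums of 1105, 1626, 564, 515 and 402 in TAB from day 3 to day 28 and 155 to 446 in sham. Of the 3 kept smooth muscle markers, Tagln was called higher, with a probe found on 4 TAB and 0 sham arrays, and the sums were 1300 to 1985 in TAB and 1092 to 1908 in sham. In whole ventricle, more cells of a type and more RNA per cell cannot be told apart, and the part of these cells in the Rcan1 and NFAT values was not tested.

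Rcan1 was set beside the hypertrophy readouts and beside genes that varied between days. Of the 6 kept genes of the fetal programme, 4 rose. Acta1, skeletal alpha-actin, was 3.39-fold higher in TAB (log2 1.76, SE 0.106, limma adjusted p = 0.00548), and Nppa, which encodes atrial natriuretic peptide, 3.49-fold (log2 1.81, SE 0.187, limma adjusted p = 0.0143). Nppb, which encodes brain natriuretic peptide, was 3.18-fold higher (log2 1.67, SE 0.337, limma adjusted p = 0.0327), and Ankrd1, a stress-responsive ankyrin repeat gene, 2.11-fold (log2 1.08, SE 0.143, limma adjusted p = 0.0178). The day 14 log2 ratio of Nppb was 0.17, with 17516 in TAB and 15573 in sham, whereas Acta1 kept a log2 ratio of 1.61 on that day. Without day 14 the mean log2 ratio of Nppb was 2.05 (limma adjusted p = 0.0406). Without day 14 that of Nppa was 1.98 (limma adjusted p = 0.0357) and that of Acta1 1.80 (limma adjusted p = 0.0273). Ankrd1 then had 1.11 and was no longer called (limma adjusted p = 0.0519). Myh6 was not called (limma adjusted p = 0.636). Atp2a2, which encodes the calcium pump SERCA2 of the sarcoplasmic reticulum, read 19597 to 25280 in TAB and 30723 to 31165 in sham, without overlap. Its mean log2 ratio of -0.42 (SE 0.107) missed the threshold (limma adjusted p = 0.0514), and it was called lower under 10 of the 11 alternatives that kept all days. Without day 14 or day 28, 3 of the 6 genes were called, and without day 3, 5 or 7, 1 was.

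Among the immediate-early genes, Egr1 read 10481 in the sham sample of day 14 against 648 to 2242 in the other sham samples, and Fos 1157 against 129 to 261. In TAB on day 14 they read 1222 and 89, so their log2 ratios of that day were -3.10 and -3.70. On days 3, 5, 7 and 28 the log2 ratios were 0.09, 1.66, 0.28 and 0.48 for Egr1. For Fos they were 0.77, 1.46, 0.66 and -0.91. Of the 10 immediate-early genes kept, 1 was called, Dusp1, a MAP kinase phosphatase, which fell to 0.420 of sham (log2 -1.25, SE 0.202, limma adjusted p = 0.0239). Without day 14, 0 of the 10 were called, and Dusp1 had a mean log2 ratio of -1.21 (limma adjusted p = 0.0596).

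Clock genes were read because their levels change over the day. Arntl, which encodes the clock factor BMAL1, read 934 and 1012 in the sham samples of days 3 and 14 and 41 to 75.2 on the other days. Dbp, a clock output gene, read 258 and 385 on those 2 days and 2883 to 5863 on the others. In TAB, Arntl was 866 on day 3, 315 on day 14 and 48.4 to 159 on the other days. The sham days with high Arntl and low Dbp were thus the days with the highest sham Rcan1, and in TAB, too, Rcan1 was highest on days 3 and 14. On day 3, where Arntl and Dbp differed between TAB and sham by log2 ratios of -0.11 and 0.07, the log2 ratio of Rcan1 was 1.48, its largest. The clock list was not alike in the operations on that day, since Nr1d1 and Nr1d2, which encode the repressors REV-ERB alpha and beta, had log2 ratios of -2.06 and -1.23, their largest of the 5 days. On day 14, where Arntl and Dbp differed by -1.68 and 2.74, the log2 ratio of Rcan1 was 0.50, its smallest. Of the 10 clock genes kept, 1 was called, Nr1d1, which fell to 0.412 of sham (log2 -1.28, SE 0.212, limma adjusted p = 0.0246). Without day 14 its mean log2 ratio was -1.25 (limma adjusted p = 0.0601). The probe had a detection p-value under 0.05 on 5 sham arrays and 1 TAB array, so the size of the fall is uncertain. The hour at which the tissue was taken is not given in the sources used here, and the part of the clock, of the immediate-early genes and of the atrial genes in the Rcan1 values was not tested.

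**Figure D3:**
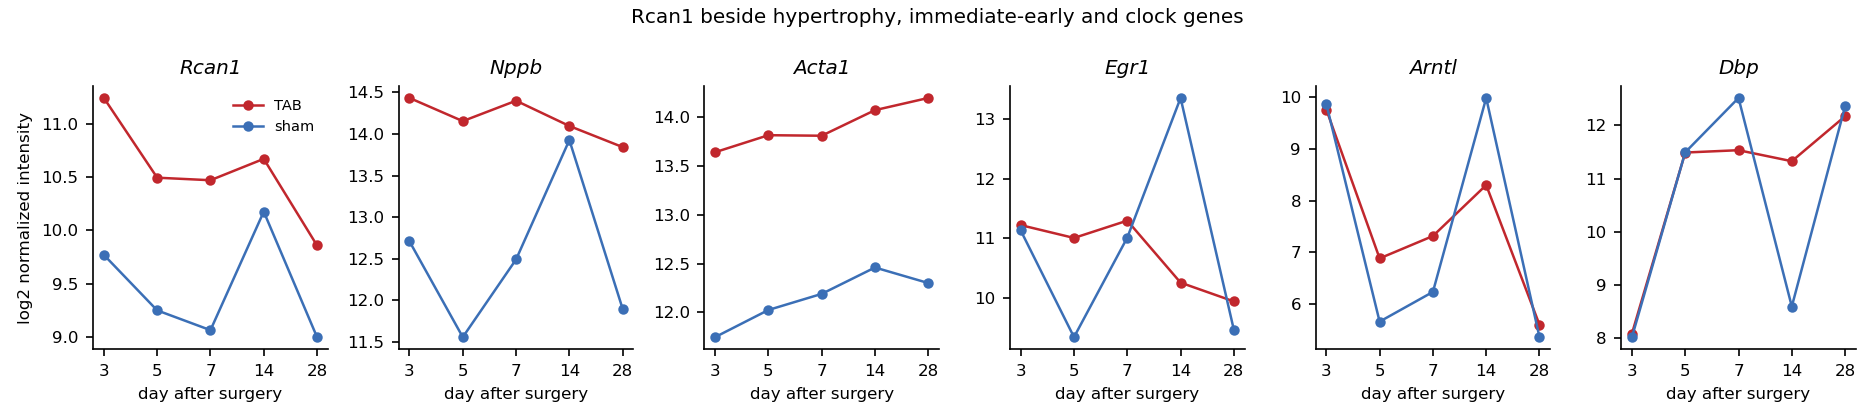
Log2 normalized intensity (vertical axis, scaled for each gene) by day after surgery (horizontal axis, days evenly spaced) for Rcan1, the hypertrophy readouts Nppb and Acta1, the immediate-early gene Egr1 and the clock genes Arntl and Dbp, with TAB in red, sham in blue and 1 array per point. The sham sample of day 14 is the highest sham point of Rcan1, Nppb, Acta1, Egr1 and Arntl, and Dbp is low on day 3 in both operations and on day 14 in sham.

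The genes whose log2 intensity was most like that of Rcan1 over the 10 samples, among 12060 probes with a symbol that were found on all arrays, were Abra (Pearson r = 0.968), 2310022B05Rik (0.960), Ap3d1 (0.960), Zfp105 (0.954) and Rhoj (0.951). These r values describe 10 samples that share the TAB difference and the days, and they were picked as the highest. Abra, which encodes an actin-binding protein of muscle, had a mean log2 ratio of 1.12 (limma adjusted p = 0.0220). Rhoj, which encodes a small GTPase, had one of 0.60 (limma adjusted p = 0.0258), and 2310022B05Rik one of 0.48 (limma adjusted p = 0.0365). Ap3d1 and Zfp105, at 0.48 and 0.36, were not called (limma adjusted p = 0.0516 and 0.0691). For Camk2d, the highest values were 0.795 to 0.815 (1810009N02Rik, Supt16h, B3galt6, Klhl15 and Strn3), and with a probe near background they are given for completeness only.

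The other genes of the pathway were taken from 5 lists with 64 genes, of which 57 had a kept probe. Of these, 5 were called higher, 2 lower and 50 were not called, with a median mean log2 ratio of -0.06 against -0.05 for all kept probes. The counts and their balance moved with the processing. Among probes found on all arrays 8 were higher and 9 lower, without the lowest tertile 7 and 8, with trend and robust on 9 and 7, with 50 added 8 and 7, without the day block 7 and 6, with normalization within each operation 8 and 1, and without a filter 1 and 0. Without day 14, and likewise without day 3, 5 or 7, 0 of the 57 genes were called, and without day 28, 3 were called higher and 1 lower. Of all kept probes, 184 were then called without day 14, 13 without day 3, 35 without day 5 and 23 without day 7. The count without day 28 stayed close to that with all days.

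Of the 16 kept calcineurin subunits, regulators and anchors, 2 were higher, 0 lower and 14 not called (list median 0.07). Cib1, a calcium- and integrin-binding protein that anchors calcineurin at the sarcolemma, read 602 to 855 in TAB and 449 to 489 in sham, which did not overlap. It was 1.45-fold higher (log2 0.53, SE 0.111, limma adjusted p = 0.0345). Fkbp1a, which encodes FKBP12, the ryanodine receptor partner and FK506 target, read 4166 to 5300 in TAB and 3160 to 3695 in sham, also without overlap, and was 1.39-fold higher (log2 0.47, SE 0.110, limma adjusted p = 0.0431). The regulatory subunit gene Ppp3r1, at 53.7 to 89.7 in TAB and 72.8 to 131 in sham, just missed the threshold (log2 -0.68, SE 0.172, limma adjusted p = 0.0501). So did Rcan3, a paralog of Rcan1, at 170 to 208 in TAB and 101 to 164 in sham (log2 0.56, SE 0.148, limma adjusted p = 0.0559). Both were chosen after their values were seen, and both probes had a detection p-value under 0.05 on 2 sham and 0 TAB arrays. Rcan2 and Ppp3r2 were below the filter, and Ppia had no probe under that symbol.

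Of the 8 kept genes of calcium entry, 2 were lower and 0 higher (list median -0.24). They were the T-type calcium channel genes. Cacna1h read 194 to 257 in TAB and 308 to 398 in sham, without overlap, and fell (log2 -0.55, SE 0.0993, limma adjusted p = 0.0278). Cacna1g read 62.1 to 119 in TAB and 108 to 154 in sham and fell (log2 -0.62, SE 0.148, limma adjusted p = 0.0443). Both probes were dim, with a detection p-value under 0.05 on 2 sham arrays and on 0 TAB arrays, so the size of the change is uncertain. Cacna1g was not called with median scaling alone or with normalization within each operation, and neither gene was called without a filter on low values. The TRP channel genes Trpc4 and Trpc6, Orai1, Stim1 and the L-type channel gene Cacna1c were not called, and Trpc1 was below the filter.

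None of the 9 kept NFAT kinases and partners was called (list median -0.14). Dyrk1a, a kinase that returns NFAT to the cytoplasm, read 167 to 204 in TAB and 229 to 286 in sham. Its mean log2 ratio was -0.39 (SE 0.101, limma adjusted p = 0.0537), which was called under 7 of the alternatives. The probe had a detection p-value under 0.05 on 2 sham and 0 TAB arrays. Gsk3b, another NFAT kinase, had a mean log2 ratio of -0.71 (SE 0.2003, limma adjusted p = 0.0642), but its probe was found on 0 TAB and 3 sham arrays.

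Of the 10 kept CaM kinases and CaMKII inhibitors, 3 were higher and 0 lower (list median 0.03). Camkk1 and Camkk2 encode the kinases that switch on CaMKI, CaMKIV and AMPK. Camkk1 read 93.2, 77.3, 93.0, 100 and 57.7 in TAB and 39.8, 47.5, 40.4, 46.5 and 22.5 in sham. The groups did not overlap, and the gene was 2.17-fold higher (log2 1.12, SE 0.129, limma adjusted p = 0.0152). Its probe had raw intensities of 35 to 93 and a detection p-value under 0.05 on 0 TAB and 0 sham arrays, so the size of the fold is uncertain. Camkk2 read 155 to 214 in TAB and 102 to 117 in sham and was called higher (log2 0.72, SE 0.110, limma adjusted p = 0.0217), but its probe had a detection p-value under 0.05 on only 2 sham and 0 TAB arrays, so the size is uncertain here too. Camk1d read 38.0 to 71.4 in TAB and 16.9 to 39.5 in sham and was called higher (limma adjusted p = 0.0434), with overlapping groups. Its probe was found on 5 TAB and 2 sham arrays and had a detection p-value under 0.05 on 0 TAB and 0 sham arrays, so no fold is given. It was not called with median scaling only (limma adjusted p = 0.0575) or without a filter (limma adjusted p = 0.0874). The other CaMKII genes Camk2a, Camk2b and Camk2g had mean log2 ratios of -0.40, -0.37 and -0.29 by their brightest probes and were not called. A further probe gave -0.10 for Camk2a and 0.078 for Camk2g, so no direction is given for Camk2g. None of the 14 kept genes of the class IIa HDAC and MEF2 list was called (list median -0.05). Its largest mean log2 ratios were -0.59 for Mef2b, whose probe was found on 1 of the 10 arrays, and -0.51 for Camta2, a coactivator held back by class IIa HDACs (SE 0.133, limma adjusted p = 0.0538), which was called under 6 of the alternatives. This Camta2 probe had a detection p-value under 0.05 on 2 sham and 0 TAB arrays. The other kept probe of Camta2 had a mean log2 ratio of -0.095.

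**Figure D4:**
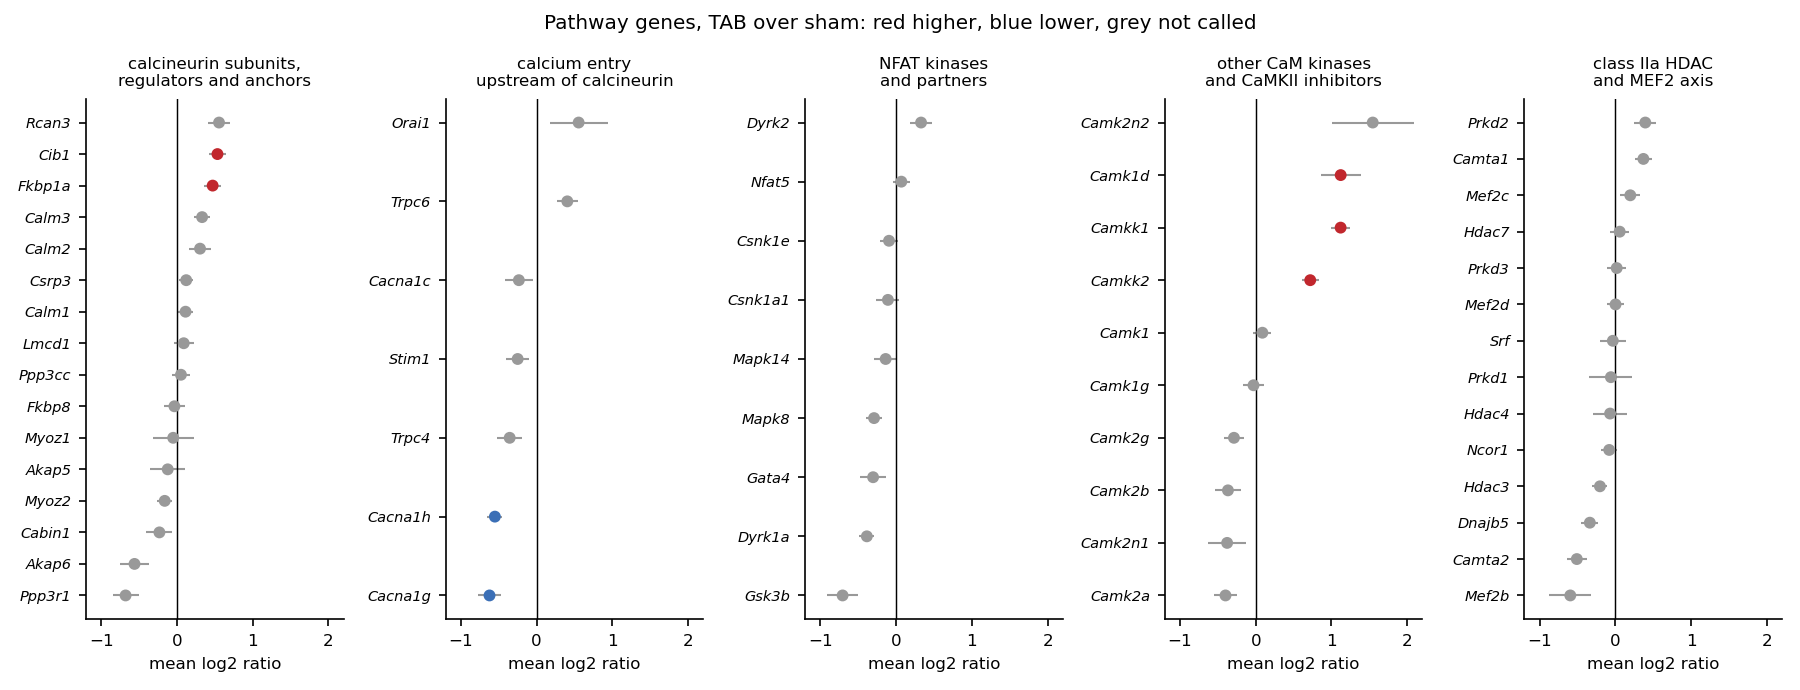
Mean log2 ratio of TAB over sham over the 5 days (horizontal axis) for 56 of the 57 kept genes of 5 pathway lists (vertical axis), with the standard error from limma as a bar. Red marks the 5 genes called higher, blue the 2 called lower and grey the genes not called, and the called genes are Cib1, Fkbp1a, Camk1d, Camkk1, Camkk2, Cacna1g and Cacna1h.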

How the data were processed

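Left-ventricle mRNA of 5 TAB and 5 sham samples was labelled with Cy5 and read on 1-colour arrays. The authors deposited raw intensity by probe and array, after a background subtraction whose method is not given in the sources used here, and left the arrays unscaled. Beside it, the authors deposited a detection p-value and a flag (unit other), whose computation is not stated. A negative flag was read as a spot that the scanner software did not find, as GenePix commonly uses it.

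Here the arrays were brought to the same median, 6447 probes that then fell below 1 on any array were dropped, quantile normalization set each rank to its median over the 10 samples, and log2 was taken. The average TAB effect and its difference between days 14 and 28 and days 3, 5 and 7 were fitted with limma (trend and robust off) on all 19976 kept probes with the day as a block, with Benjamini-Hochberg adjustment over all of them and a threshold of 0.05. The day pairs the samples by design. Deviations from the group mean of samples sharing a day correlated over probes with r = 0.112 for day 3 and 0.00148 to 0.0466 for the others. On simulated data for these 19976 probes, changes of 1, 2 and 3 log2 units were put into 71, 64 and 65 probes. The average effect was recovered for 45.1%, 82.8% and 89.2% of them, with 8 false calls. The late minus early difference was recovered for 0%, 0% and 38.5%. So few changed probes make the adjustment strict, and the simulated spread held any real difference between early and late days. The rates may thus be too low. No single day was tested, and a DE call there needed a log2 ratio over 2 SDs of that day.

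Each sample has its own operation and day, and how many mice it held is not given in the sources used here, so the p-values measure the spread between these samples over the days. The number of arrays limits the precision, and the depth behind an intensity is unknown. The study's rule of 1 probe per gene by the largest change was kept as an alternative, since it picks on the outcome. A gene of the calcium entry list stayed in the counts and is not reported here by name. Each gene of a list was read by its brightest kept probe. Up to 4 called genes of a list were named, those with the largest change, or the 2 with the largest mean ratio where none was called, besides the members and the 5 genes most like Rcan1 and Camk2d. Other list genes named with their values, such as Egr1, Fos, Arntl, Dbp and Atp2a2, were chosen after their values were seen. The members, lists, tests and alternatives were chosen with earlier results of these data known. The 3633 probes without a symbol stayed in the fit. Promoter windows are RefSeq sequences of GRCm38.p6. Tools were Python 3.11.15, numpy 2.4.6, pandas 2.3.3, matplotlib 3.10.9, R 4.3.3 and limma 3.58.1.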

Additional observations from a re-analysis of the deposited data

Results flagged for a closer look

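In 5 of 62 groups of 5 samples, 1 sample stood away from the other four by Dixon's test, of which chance flags about 1 in 20. The dimmer Nfatc4 probe was lowest in the TAB sample of day 28, with a log2 intensity of 6.29 against 7.07 to 7.24 on the other TAB days. Cib1 was highest in the TAB sample of day 5, with 9.74 against 9.23 to 9.36. Camkk1 was lowest in the sham sample of day 28, with 4.49 against 5.31 to 5.57. Dusp1 was highest in the sham sample of day 14, with 11.54 against 10.60 to 10.78. Nr1d1 was lowest in the sham sample of day 5, with 9.08 against 9.35 to 9.44. No member probe or named gene was flagged for a difference between early and late days.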

How the results depend on the processing

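Rcan1 kept its direction under all 16 alternatives tried for the average TAB effect. It lost its call without a filter on low values (log2 1.10, limma adjusted p = 0.0590) and ranged from 1.00 to 1.25 when a day was left out. The fit without the day as a block kept the call of Rcan1 (log2 1.10, limma adjusted p = 0.0263), and it gave 2 probes called for late minus early where the fit with the block gave 0.

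The number of probes called moved more. Against 2836 calls (1492 higher, 1344 lower), 4890 were called with 50 added to the intensities (2365 and 2525), 4365 without the lowest tertile (2325 of them lower), 4377 among probes found on all arrays (2345 lower), 371 without a filter (264 and 107) and 4726 with trend and robust on (2290 and 2436), and 884 were lower with median scaling only. With a day left out, 13 to 2773 probes were called, 13 to 1455 higher and 0 to 1318 lower, the highest counts being those without day 28. Member probes called numbered 1 in the report, 2 with 50 added or with trend and robust on, 3 without the lowest tertile or among probes found on all arrays, 0 without a filter, and 0 to 1 with a day left out. For late minus early, 9 probes were called with 50 added, 3 without the lowest tertile, 9 among probes found on all arrays and 35 with trend and robust on, none of them a member. Member values called DE on single days numbered 0 in the report, 5 with 50 added, 6 at an absolute log2 ratio of at least 1 (Rcan1 on days 3, 5 and 7, the dimmer Nfatc4 probe on days 5 and 7, and Hdac9 on day 14), 2 without the lowest tertile and 3 among probes found on all arrays. As shares of the member values these were 0%, 7.14%, 8.57%, 3.08% and 4.29%, against 5.58%, 4.74%, 16.1%, 4.27% and 4.67% of the values of all probes at the same settings.

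Some members that were not called turned sign. The average turned for Ppp3ca with median scaling only (0.095) and normalization within each operation (0.092), for Nfatc1 with the study's probe choice (0.13), for Nfatc2 with the mean of its probes (-0.067), and for Nfatc4 with the mean of its probes (0.14) or the study's choice (0.66). With a day left out it spanned 0 for Ppp3ca (-0.11 to 0.023), Nfatc3 (-0.087 to 0.047), Camk2d (-0.16 to 0.049) and an Nfatc1 probe (-0.0076 to 0.057). Late minus early turned for Nfatc1 with the mean of its probes (0.020) or the study's choice (0.18), for another Nfatc1 probe with days 3 and 5 alone as early days (-0.036), for Nfatc4 with the mean (-0.22) or the study's choice (-0.94), and for Camk2d with days 3 and 5 alone as early days (-0.079). With a day left out it spanned 0 for that Nfatc1 probe (-0.12 to 0.48), Nfatc3 (-0.25 to 0.018) and Camk2d (-0.079 to 0.35). The cause was not tested, apart from the probe choices, which replace 1 probe by another. Probes near background, among them those of Camk2d and the NFAT genes, limit what can be seen.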
